A study of Mus musculus with 81 samples.

Results

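The 10 genes described here encode C-type lectin receptors of myeloid cells, namely Clec7a, Clec4e, Clec4d, Clec4n, Clec5a, Clec12a, Clec4a1, Clec4a2, Clec4a3 and Clec2i. They were chosen by symbol, with earlier results of these data known, from the 22180 genes that have an array probe of their own. Each of the 10 was read by a single probe. Their mRNA was measured on 81 arrays of cells sorted from Irf8 knockout mice and from wild-type mice, Irf8 being one of the interferon regulatory factors. The knockout groups were A1 and A2, progenitor populations of the yolk sac, at E9.5, then 5 populations each taken at E14 and at 6 weeks of age, and Langerhans cells at 6 weeks. The 5 were microglia, Kupffer cells, F4/80high cells of the kidney, and the CD11bhigh macrophages of both liver and kidney. Wild type was sampled in the same 13 populations and in erythro-myeloid progenitors (EMP) at E8, which gave 13 knockout groups with 39 samples and 14 wild-type groups with 41 samples. Each group had 3 samples, except that the E14 kidney F4/80high group of wild type had 2. One repeated array of A2 knockout replicate 2 was averaged with its partner. The titles of the wild-type Langerhans arrays name GFP+ cells. Apart from that the labels give no other allele and no strain, and they do not say which samples came from separate animals. The p-values therefore measure the spread between these samples. That spread was pooled for each gene over all 27 groups and is not that of the compared groups alone. Levels are log2 array signals, and a level near 3.04, the median of the whole table, is close to the background of this array.

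C-type lectin receptors are transmembrane proteins whose extracellular lectin-like fold binds glycans, glycolipids or proteins of microbes and of damaged or neighbouring cells. Clec7a (Dectin-1) binds fungal beta-glucan and signals through its own tail to the kinase Syk and the adaptor Card9. Clec4e (Mincle), Clec4d (MCL) and Clec4n (Dectin-2) recognise microbial glycolipids and mannans and depend on the signalling chain Fcer1g, while Clec5a (MDL-1) pairs with the adaptors Tyrobp (DAP12) and Hcst (DAP10). Clec12a (MICL) and Clec4a2 (DCIR) carry inhibitory tails that recruit phosphatases, Clec4a1 and Clec4a3 are close relatives of Clec4a2, and Clec2i (Clr-g) is a ligand of natural killer cell receptors of the Nkrp1 family. In tissue macrophages these receptors serve in the uptake and sensing of microbes, and Irf8 acts on DNA together with the Ets factor PU.1 or other interferon regulatory factors.

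All 10 genes lie on mouse chromosome 6. A promoter window, running from 250 bases before to 50 bases after a RefSeq transcript start (GRCm38.p6), was at hand for 9 of the 10 genes, Clec4n being the other. The windows were searched on both strands for 3 motifs that such factors are known to bind, the Ets-IRF composite (GGAA, any 2 bases, GAAA), the IRF-Ets composite (GAAA, any 2 bases, GGAA) and the interferon response core (GAAA, any 2 bases, GAAA), and 5 of the 9 windows held a match to any of them. For each of the 9 genes only the first listed window was searched. Of all 32851 RefSeq windows 8.37% held a match, and 9.56% of genes had a match in any of their windows. The 4 windows below belong to genes whose level differed most between knockout and wild type, with the matches in capitals. They are Clec7a at chr6:129472730-129473029 (minus strand), Clec12a at chr6:129349994-129350293 (plus strand), Clec4a1 at chr6:122921598-122921897 (plus strand) and Clec4d at chr6:123261857-123262156 (plus strand).
Clec7a: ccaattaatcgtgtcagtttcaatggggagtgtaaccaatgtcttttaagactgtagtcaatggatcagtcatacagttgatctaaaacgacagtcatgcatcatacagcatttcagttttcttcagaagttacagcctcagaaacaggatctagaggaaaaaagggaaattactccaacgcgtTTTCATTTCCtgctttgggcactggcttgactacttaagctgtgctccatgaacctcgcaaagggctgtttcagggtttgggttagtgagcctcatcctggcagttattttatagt
Clec12a: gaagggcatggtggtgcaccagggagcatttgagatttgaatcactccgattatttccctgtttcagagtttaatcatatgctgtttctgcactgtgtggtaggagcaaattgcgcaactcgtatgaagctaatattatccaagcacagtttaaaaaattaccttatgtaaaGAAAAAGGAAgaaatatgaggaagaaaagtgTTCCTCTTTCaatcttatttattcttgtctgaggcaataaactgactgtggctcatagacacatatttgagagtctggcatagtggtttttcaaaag
Clec4a1: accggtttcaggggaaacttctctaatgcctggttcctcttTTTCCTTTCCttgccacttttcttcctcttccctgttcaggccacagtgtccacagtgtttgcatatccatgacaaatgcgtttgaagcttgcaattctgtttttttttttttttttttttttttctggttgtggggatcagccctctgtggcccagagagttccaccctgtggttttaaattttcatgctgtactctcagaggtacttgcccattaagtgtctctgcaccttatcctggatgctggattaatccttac
Clec4d: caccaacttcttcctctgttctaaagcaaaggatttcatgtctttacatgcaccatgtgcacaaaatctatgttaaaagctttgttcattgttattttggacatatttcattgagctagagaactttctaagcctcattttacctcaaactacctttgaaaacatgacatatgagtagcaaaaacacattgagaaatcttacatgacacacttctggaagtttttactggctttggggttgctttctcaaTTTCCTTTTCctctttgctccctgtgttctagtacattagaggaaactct
Counting the first transcribed base as 1 and the base before it as -1, the Ets-IRF composite lay at -66 to -57 in Clec7a, at -209 to -200 in Clec4a1 and at -111 to -102 in Clec2i, each on the minus strand of its window, and 2.72% of all 32851 windows held it. Clec12a held the IRF-Ets composite at -78 to -69 and again at -47 to -38, and 2.8% of windows held that motif. The interferon response core was found in Clec4d at bases 1 to 10, as in 3.44% of windows. A match says only that these letters are present, and no binding was measured here.

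The level of Irf8 itself was read first. It was 5.55, 5.19 and 6.43 in the knockout E14 liver CD11bhigh samples, against 8.67, 8.88 and 8.67 in wild type (log2 change -3.02 ± 0.25 SE, adjusted p = 5.65e-15 in the limma fit described below). In adult microglia it was 10.29, 10.65 and 9.98 in the knockout, against 9.85, 9.69 and 9.95 in wild type. The sources used here name neither the deleted part of the gene nor the part that the probe reads, so this level does not check the genotype labels. All changes below come from one limma fit over the 80 samples and 17076 genes, are called at a two-sided Benjamini-Hochberg adjusted p below 0.05, and are printed as log2 change ± SE. Where every sample of a group was below 3.04, the fitted change is a difference from background and not a measured size. Defining markers were present in the wild-type cells named after them, with a mean over 9 microglia markers of 10.04 to 10.24 in adult microglia and over 8 Kupffer markers of 8.28 to 8.59 in E14 Kupffer cells. In sorted bulk samples, fewer cells of a type and less RNA per cell cannot be told apart.

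In wild-type mice, every one of these genes was close to background in E8 progenitors, with means between 1.92 for Clec5a and 2.74 for Clec4d. From E8 EMP to A1 9 of the 10 genes rose, against 22.7% of all genes called in either direction. Clec4a3 had 6.05, 7.44 and 7.28 in the A1 samples, against 2.59, 2.13 and 1.65 in EMP (4.80 ± 0.33, adjusted p = 1.2e-19). Clec7a had 5.56, 6.44 and 6.60 in A1, against 1.97, 2.80 and 2.04 in EMP (3.93 ± 0.21, adjusted p = 5.43e-25). Clec4a2 was the one gene that was not called, with 2.70, 2.20 and 3.54 in A1, against 1.62, 1.19 and 3.05 in EMP. Beside this step, the summary of 12 pan-macrophage markers, of which 11 were read, averaged between 6.35 and 6.65 per sample in A1, against 3.90 to 4.02 in EMP.

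Between A1 and A2 the receptors moved in both directions, and 8 of 10 changed, against 11.4% of all genes. Clec4d fell to 2.77, 2.57 and 3.67 in A2, against 5.52, 5.86 and 6.35 in A1 (-2.91 ± 0.36, adjusted p = 2.84e-09). Clec4e fell as well (-2.31 ± 0.44, adjusted p = 4.98e-05), and so did Clec4n (-1.41 ± 0.25, adjusted p = 1.83e-05), so the 3 receptors that depend on Fcer1g were all lower in A2. Clec7a (1.32 ± 0.21), Clec12a (1.25 ± 0.40), Clec5a (1.82 ± 0.39), Clec4a1 (1.82 ± 0.33) and Clec4a2 (1.83 ± 0.38) rose, with adjusted p between 1.47e-06 for Clec7a and 0.0292 for Clec12a. A2 samples had Clec12a at 7.11, 7.60 and 6.78, against 5.37, 5.86 and 6.52 in A1, without overlap, as for 31.6% of all genes. The call of Clec12a was lost without any one of 4 of the 6 samples (adjusted p = 0.0654 to 0.208).

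In E14 Kupffer cells, which line the sinusoids of the liver, Clec4n stood at 8.97, 8.55 and 8.89, against 3.70, 3.81 and 4.52 in A2 (4.79 ± 0.25, adjusted p = 1.74e-24). On this step 6 genes rose and 1, Clec5a, fell (-2.35 ± 0.39, adjusted p = 2.39e-06), against 25.6% of all genes called. Of the rises, those of Clec12a and Clec4d were each lost without any one of 4 of the 6 samples (adjusted p = 0.0895 to 0.216). In E14 microglia 2 rose and 2 fell relative to A2, against 29.2% of all genes. The 2 that fell were Clec7a (-1.03 ± 0.21, adjusted p = 6.46e-05) and Clec12a (-1.72 ± 0.40, adjusted p = 0.000491), and Clec4n, at 4.01, 4.26 and 4.06, stayed near its A2 level without a call (adjusted p = 0.846).

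**Figure D1:**
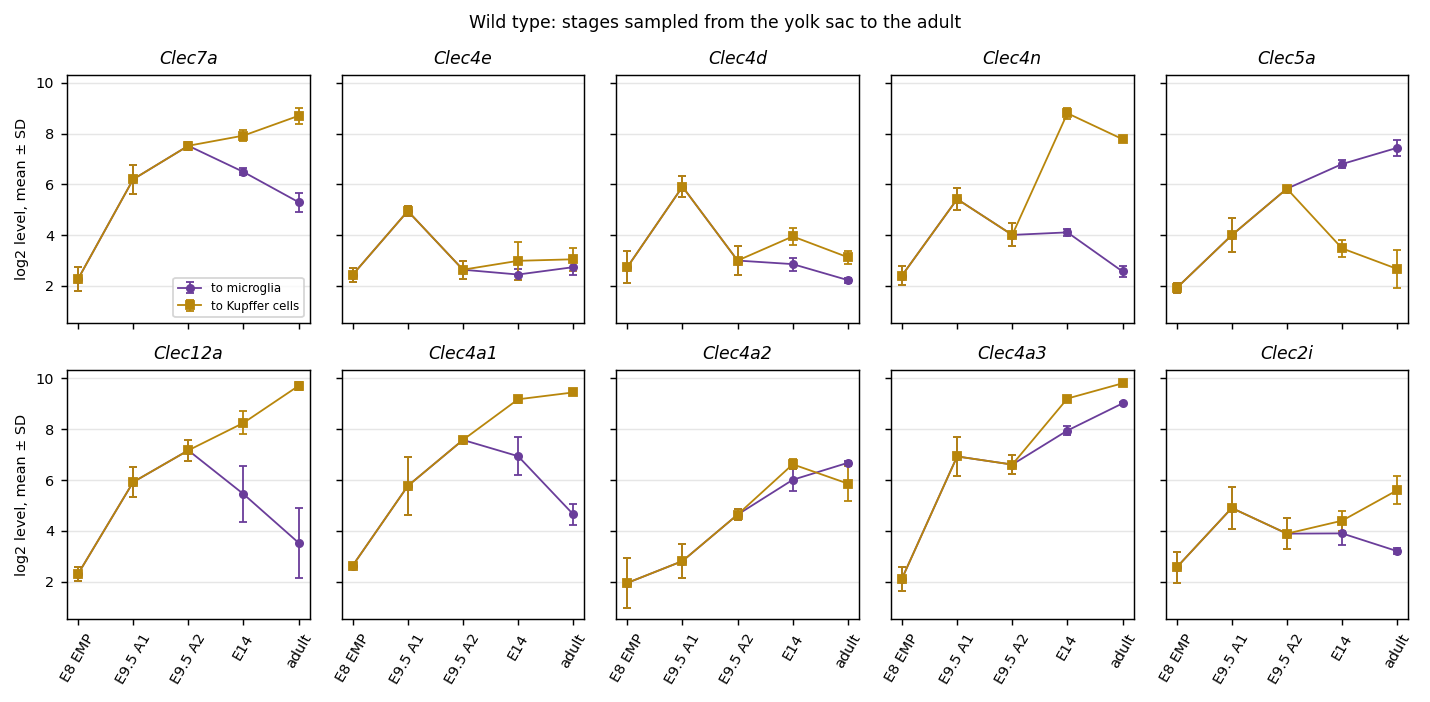
Wild-type log2 level (y axis, mean ± SD of 3 samples) of each gene at E8 EMP, E9.5 A1, E9.5 A2, E14 and adult (x axis), with the last 2 stages drawn for microglia (circles) and for Kupffer cells (squares). Clec7a, Clec12a, Clec4a1 and Clec4n end low in adult microglia, at 5.30, 3.53, 4.65 and 2.57, and high in adult Kupffer cells, at 8.70, 9.71, 9.45 and 7.78, and Clec5a ends the other way round, at 7.44 in microglia and 2.67 in Kupffer cells.

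In adult microglia 4 of the 10 genes were lower than at E14 and 1 was higher, against 18.4% of all genes called. Clec4a1 had 4.64, 4.25 and 5.05 in adult microglia, against 6.09, 7.37 and 7.38 at E14 (-2.30 ± 0.33, adjusted p = 1.33e-07). Clec12a (-1.91 ± 0.40), Clec4n (-1.54 ± 0.25) and Clec7a (-1.19 ± 0.21) fell too, and Clec4a3 rose (1.07 ± 0.33, adjusted p = 0.0141, and 0.0648 without E14 replicate 1). For Clec12a the samples overlapped, since adult wild-type replicate 2 stood at 5.02 while the other adult samples had 3.26 and 2.32. In that replicate the mean of 22 neutrophil markers was 6.10, against 3.29 and 3.90 in the other 2, and its part in the Clec12a level was not tested.

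Sex was not balanced between the ages in the wild-type liver and kidney populations. The sex-linked gene Xist was 2.58 to 3.88 in their adult samples, against 3.28 to 9.74 at E14. Sex and age therefore cannot be fully told apart in these populations, and the part of sex was not tested. Adult Kupffer cells had 3 genes above and 1 below the E14 level, against 30.1% of all genes. Clec12a (1.46 ± 0.40, adjusted p = 0.00321), Clec2i (1.20 ± 0.42, adjusted p = 0.0228) and Clec7a (0.78 ± 0.21, adjusted p = 0.00235) rose, and Clec4n fell (-1.02 ± 0.25, adjusted p = 0.000973). The call of Clec2i was lost without any one of 4 of the 6 samples (adjusted p = 0.0543 to 0.129). In adult kidney F4/80high macrophages 4 genes were higher and 2 lower than at E14, where wild type had 2 samples, against 28.3% of all genes. The 2 that fell were the Mincle and MCL genes, Clec4e to 2.61, 3.09 and 2.16, against 5.35 and 5.23 at E14 (-2.67 ± 0.49), and Clec4d to 2.90, 3.95 and 4.04, against 6.22 and 5.48 at E14 (-2.22 ± 0.40). Of the 4 rises, that of Clec2i was lost without any one of 4 of the 5 samples (adjusted p = 0.0585 to 0.449), and that of Clec5a without either of 2 (adjusted p = 0.0856 and 0.0891).

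The CD11bhigh fraction of the liver showed the widest change with age among the 5 populations sampled at both ages, counted as genes called. There 7 genes were higher in the adult and 2 lower, against 34.4% of all genes. Clec4e had 8.43, 8.28 and 8.33 in adult samples, against 3.91, 3.99 and 4.61 at E14 (4.18 ± 0.44, adjusted p = 2.84e-12). Clec5a ran the other way, with 5.41, 5.39 and 5.57 in adult samples, against 8.15, 8.27 and 8.23 at E14 (-2.76 ± 0.39, adjusted p = 2.82e-08). Marker means moved with this step. The neutrophil mean lay between 5.41 and 6.69 in the adult and between 8.45 and 8.74 at E14, and the mean of 13 monocyte markers between 9.36 and 9.50 in the adult and between 7.28 and 7.44 at E14. Their part was not tested. In the kidney CD11bhigh fraction 2 genes, Clec2i and Clec4a3, were higher in the adult and 4, Clec4n, Clec4d, Clec5a and Clec4a2, lower, against 35.1% of all genes. Clec4a3, Clec4d and Clec4a2 were each lost without any one of 3 samples, and Clec5a without adult replicate 2 (adjusted p = 0.118).

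**Figure D2:**
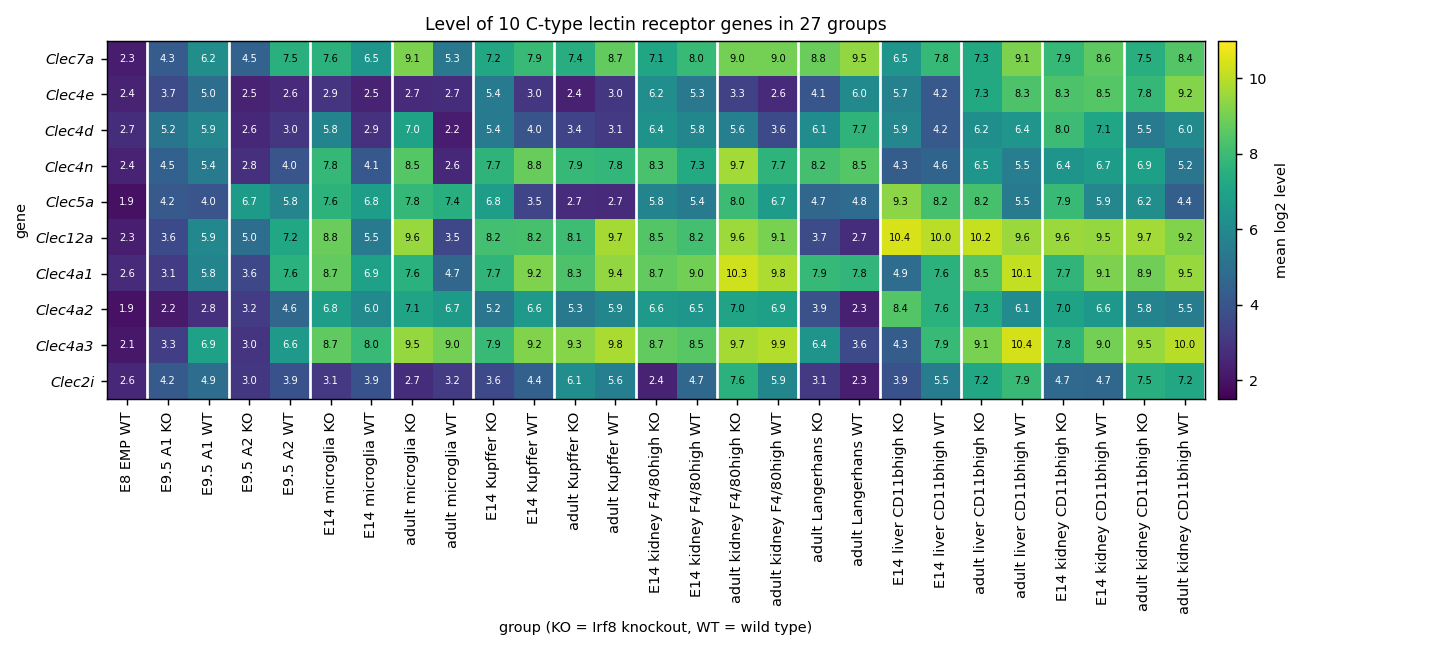
Mean log2 level (colour and number) of the 10 genes (rows) in the 27 groups (columns), with knockout left of wild type in each population. Every gene is low in E8 EMP, and rows are to be read along one gene, because levels of different probes are not on a shared scale.

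Among the 4 resident populations of the wild-type adult, each was compared with the mean of the other 3. Sex was not balanced between them. The sex-linked gene Xist was 2.71 to 3.88 in Kupffer cells and 2.58 to 3.57 in resident kidney macrophages, against 9.77 to 10.30 in Langerhans cells. Microglia were mixed, at 2.99, 10.17 and 10.36. Sex and cell type therefore cannot be fully told apart in these contrasts, and the part of sex was not tested. Microglia were lower for 7 and higher for 3 of the 10 genes, against 41.2% of all genes called. The 3 that were higher were Clec5a (2.71 ± 0.32), Clec4a2 (1.66 ± 0.31) and Clec4a3 (1.23 ± 0.27), and the lowest relative to the rest was Clec4n (-5.40 ± 0.21, adjusted p = 3.41e-32), at 2.52, 2.38 and 2.82. Langerhans cells of the epidermis had the highest Clec4d and Clec4e of the 4, with Clec4d at 7.71, 7.84 and 7.51 (4.69 ± 0.29, adjusted p = 3.88e-22) and Clec4e at 5.46, 6.34 and 6.34 (3.24 ± 0.36, adjusted p = 4.95e-12). They were at background for Clec12a, with 2.49, 3.34 and 2.40 (-4.70 ± 0.33), and near it for Clec4a3, with 3.33, 3.94 and 3.62 (-5.95 ± 0.27). In all 4 genes were higher and 5 lower in Langerhans cells, against 52.9% of all genes. Leaving out 1 sample ended the call of Clec5a in Langerhans cells in 5 of 12 cases and that of Clec4e in microglia in 1 of 12.

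Kupffer cells were higher than the mean of the rest for 6 genes and lower for 2, against 39.1% of all genes, with Clec12a at 9.86, 9.55 and 9.73 (4.59 ± 0.33) and Clec5a at 2.75, 1.88 and 3.36 (-3.65 ± 0.32). Kidney F4/80high macrophages were higher for 8 and lower for 1, Clec4e, against 30.2% of all genes. Along the order of all 27 groups, Clec7a was highest in wild-type Langerhans cells, at 9.47 ± 0.15 (SD, n = 3), and lowest but for EMP in the knockout A1 and A2 groups, whose samples overlapped. Clec12a was highest in the knockout E14 liver CD11bhigh cells, at 10.41 ± 0.06, Clec4a3 in wild-type adult liver CD11bhigh cells, at 10.38 ± 0.13, and Clec4n in knockout adult kidney F4/80high macrophages, at 9.67 ± 0.16. For Clec4e and Clec2i the 5 highest groups each overlapped with the next in that order.

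The CD11bhigh gate differed from the F4/80high or Kupffer gate of the same organ in all 3 Fcer1g-dependent receptors of the adult. In the adult kidney Clec4e had 8.52, 9.48 and 9.65 in CD11bhigh cells, against 2.61, 3.09 and 2.16 in F4/80high cells (6.60 ± 0.44, adjusted p = 2.1e-19), and in the adult liver it was higher by 5.29 ± 0.44 (adjusted p = 6.04e-16). Clec4d was higher in CD11bhigh cells in both adult organs (3.31 ± 0.36 in liver, 2.37 ± 0.36 in kidney). Clec4n was lower in CD11bhigh cells, with changes of -2.23 ± 0.25 in liver and -2.45 ± 0.25 in kidney. The counts were 4 higher and 1 lower in adult liver, 3 and 4 in adult kidney, 4 and 3 in E14 liver, and 2 and 0 in E14 kidney, against 28%, 23.6%, 24.6% and 5.82% of all genes in that order. Calls lost without any one of 4 samples were those of Clec4d in E14 kidney, where 5 samples were compared, Clec2i and Clec4e in E14 liver, and Clec2i and Clec7a in adult kidney, and Clec4a2 in adult kidney was lost without 1.

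The gates also differed in cell type markers, whose part was not tested. The monocyte marker mean was 9.43 in CD11bhigh cells, against 6.38 in Kupffer cells, of the adult liver, and 8.72 in CD11bhigh cells, against 5.69 in F4/80high cells, of the adult kidney. The macrophage marker mean was 7.70, against 10.17, in adult liver and 8.03, against 9.97, in adult kidney. At E14 the neutrophil marker mean lay between 8.45 and 8.74 in liver CD11bhigh cells, against 5.07 to 5.36 in Kupffer cells. Same-numbered arrays of both gates may share a pool of cells, since E14 kidney titles repeat a number across gates and Xist went along with the number at E14 in knockout liver (9.40, 9.29 and 3.21 in CD11bhigh cells, against 9.24, 8.72 and 3.14 in Kupffer cells). Xist did not go along with it in adult knockout liver (3.00, 2.56 and 2.74 in CD11bhigh cells, against 9.99, 9.54 and 9.52 in Kupffer cells). Nor did it for number 3 of E14 wild-type kidney (3.28 in CD11bhigh cells, against 6.01 in F4/80high cells), and the block covered these sets too. With that number as a block, added after the data were seen, Clec4d in E14 kidney (adjusted p = 0.181), Clec7a in adult kidney (adjusted p = 0.0543) and Clec2i in E14 liver (adjusted p = 0.0602) were not called, and Clec4a2 in E14 liver was (0.95 ± 0.36, adjusted p = 0.0417).

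Between knockout and wild type, 65 of the 130 levels given by 10 genes in 13 populations differed, 29 of them higher in the knockout and 36 lower. Thus 50% were called, against 12.9% of all genes and populations pooled. Because the genes were chosen with earlier results of these data known, this and the shares below describe the set and do not test it. Clec7a was lower in 10 populations and higher in 2, adult and E14 microglia, and 0.0996% of all genes (17 of 17076) were lower in at least 10. Clec4a1 was lower in 7 and higher in the same 2 (0.814% of all genes were lower in at least 7). Clec4a3 was lower in 6 and higher in 1 (1.67% were lower in at least 6). Clec5a was higher in 6 and lower in 0, and Clec4n higher in 6 and lower in 3 (0.632% of all genes were higher in at least 6). Clec4d was higher in 5 and lower in 1 (1.45% were higher in at least 5). Clec12a, Clec4a2, Clec4e and Clec2i were called in 5, 4, 4 and 3 populations. Clec12a was higher in 2 and lower in 3, Clec4a2 and Clec4e each higher in 2 and lower in 2, and Clec2i higher in 1 and lower in 2. Of all genes, 46.9% were higher in at least 1 and 20.5% in at least 2, while 19.9% were lower in at least 2 and 9.59% in at least 3. All calls of the 10 genes were made against the 13 separate wild-type groups.

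**Figure D3:**
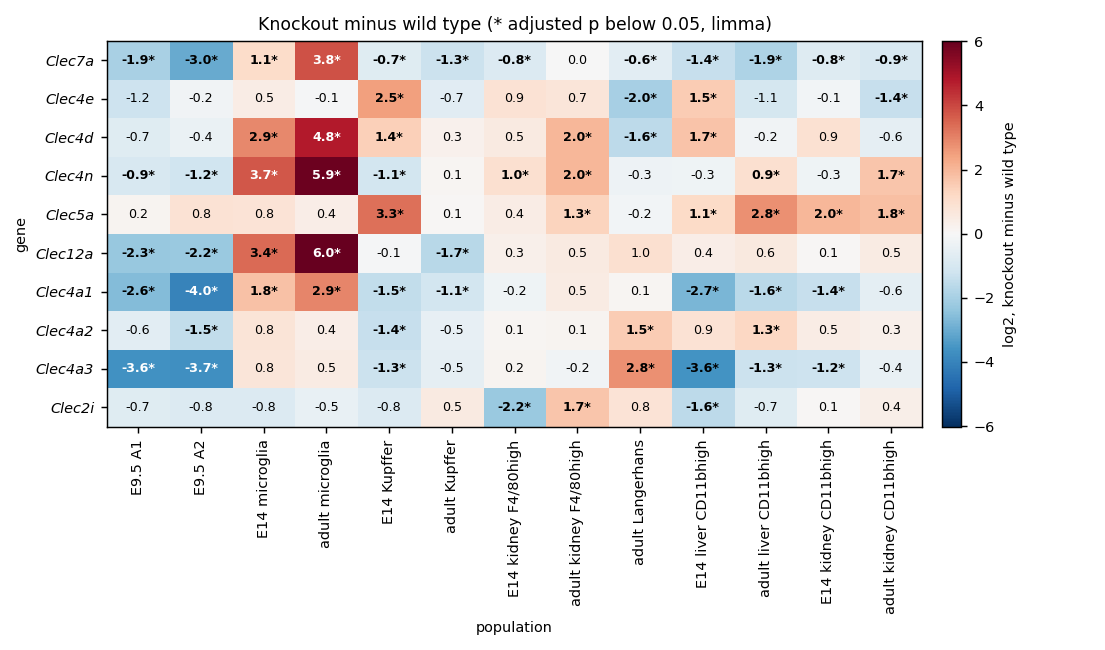
Log2 level in the knockout minus wild type (colour and number) for the 10 genes (rows) in 13 populations (columns), with an asterisk where the adjusted p was below 0.05. The A1 and A2 columns hold no called rise, the 2 microglia columns no called fall, and the Clec5a row no called fall.

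In the yolk sac, several receptors that were higher in wild-type A1 than in EMP were lower in the knockout. In A2 6 of 10 genes fell and 0 rose, against 10.1% of all genes (3.77% higher and 6.29% lower), with a median change over the 10 of -1.34, against 0.02 over all genes. Clec4a1 had 3.85, 3.90 and 2.94 in knockout A2 samples, against 7.66, 7.53 and 7.56 in wild type (-4.02 ± 0.33, adjusted p = 4.74e-15). Clec4a3 had 2.89, 2.56 and 3.38 in the knockout, against 6.31, 6.51 and 7.01 in wild type (-3.67 ± 0.33, adjusted p = 9.49e-14). Both knockout groups were at or near background, and neither overlapped with wild type, as was the case for 30.8% of all genes.

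Clec7a had 4.45, 4.37 and 4.63 in knockout A2 cells, against 7.43, 7.69 and 7.44 in wild type (-3.04 ± 0.21, adjusted p = 2.44e-18). Clec12a (-2.22 ± 0.40, adjusted p = 3.33e-05), Clec4a2 (-1.48 ± 0.38, adjusted p = 0.00505) and Clec4n (-1.21 ± 0.25, adjusted p = 0.00033) fell as well. For Clec4n the means were 2.80 in the knockout and 4.01 in wild type. Every knockout sample was at or below 3.04, so the fall was at least 1.96-fold counted to 3.04. Clec4a2 was not called without knockout replicate 3 (-1.22 ± 0.42, adjusted p = 0.0686). Clec5a had 6.80, 6.93 and 6.31 in knockout A2 samples, against 5.80, 5.87 and 5.82 in wild type. It did not pass the test (0.85 ± 0.39, adjusted p = 0.185) although its samples, like those of 30.8% of all genes, did not overlap. A limma fit on the A2 groups alone did call it (0.85 ± 0.17, adjusted p = 0.00626).

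In A1 5 of 10 genes fell and 0 rose, against 3.36% of all genes (0.591% higher and 2.77% lower). Clec4a3 had 4.11, 3.39 and 2.33 in the knockout, against 6.05, 7.44 and 7.28 in wild type (-3.65 ± 0.33, adjusted p = 6.64e-13). Clec4a1 (-2.62 ± 0.33), Clec12a (-2.28 ± 0.40), Clec7a (-1.94 ± 0.21) and Clec4n (-0.95 ± 0.25) were the others, and Clec4n was lost without knockout replicate 2 or 3 or wild-type replicate 2 or 3 (adjusted p = 0.072 to 0.211). Beside these falls, 10 of 11 macrophage markers were lower in knockout A2, with sample means of 6.05 to 6.40, against 8.49 to 8.89 in wild type. In A1 8 of 11 were lower, with 4.87 to 5.19 in the knockout, against 6.35 to 6.65 in wild type. Their part in the fall of the receptors was not tested.

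In knockout microglia 5 receptors were higher at both ages. In adult microglia 5 of 10 genes rose and 0 fell, against 14.6% of all genes (5.86% higher and 8.72% lower), and the median over the 10 was 1.70, against -0.03 over all genes. Clec12a had 9.64, 9.47 and 9.54 in knockout samples, against 3.26, 5.02 and 2.32 in wild type, without overlap, as for 28.2% of all genes (6.02 ± 0.40, adjusted p = 1.57e-19). The change was 6.76 ± 0.40 without wild-type replicate 2, the one with neutrophil markers, and 5.41 ± 0.42 without wild-type replicate 3. Clec4n had 8.28, 8.69 and 8.47 in the knockout, against 2.52, 2.38 and 2.82 in wild type (adjusted p = 3.16e-29). In wild type Clec4n was at background in all 3 samples, and it was at least 43.3-fold higher in the knockout, counted from the background level of 3.04.

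Clec4d, the partner of Clec4e in one receptor complex, had 6.54, 7.62 and 6.80 in knockout adult microglia, against 2.34, 2.16 and 2.18 in wild type, at least 15.4-fold higher by the same reckoning (adjusted p = 2.58e-17). Clec4e itself was at background in both, with 2.98, 2.26 and 2.78 in the knockout, against 2.42, 3.06 and 2.74 in wild type. Clec7a had 9.25, 8.67 and 9.41 in the knockout, against 5.65, 5.34 and 4.91 in wild type, a 14-fold rise (3.81 ± 0.21, adjusted p = 1.15e-23). Clec4a1 rose 7.55-fold (2.92 ± 0.33, adjusted p = 1.86e-10), whereas its relatives were not called, Clec4a3 at 9.34, 9.66 and 9.48 in the knockout, against 9.03, 8.96 and 9.07 in wild type, and Clec4a2 at 6.99, 7.08 and 7.12, against 6.67, 6.76 and 6.62. The 5 calls were kept without any one of the 6 samples, including wild-type replicate 2 with its neutrophil markers and wild-type replicate 1, whose Xist level of 2.99 stood apart from 10.17 to 10.73 in the other 5.

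At E14 the same 5 genes were called, again all higher, against 14.3% of all genes (8.32% higher and 5.99% lower). Clec4n had 7.96, 7.63 and 7.92 in knockout E14 microglia, against 4.01, 4.26 and 4.06 in wild type (3.73 ± 0.25, adjusted p = 2.3e-18). Clec12a had 8.68, 9.06 and 8.78 in the knockout, against 4.56, 5.07 and 6.70 in wild type (3.39 ± 0.40, adjusted p = 1.45e-09). Clec4d (2.91 ± 0.36), Clec4a1 (1.78 ± 0.33) and Clec7a (1.09 ± 0.21, adjusted p = 7.35e-05) were smaller. The adult change exceeded that at E14 for Clec7a (difference 2.72 ± 0.30, adjusted p = 2.26e-10), Clec12a (2.62 ± 0.57), Clec4n (2.18 ± 0.36) and Clec4d (1.85 ± 0.51, adjusted p = 0.01, and 0.0544 without adult knockout replicate 2), while for Clec4a1 the difference of 1.14 ± 0.47 was not called (adjusted p = 0.122). A comparison of all genes in this way called 10.5%.

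**Figure D4:**
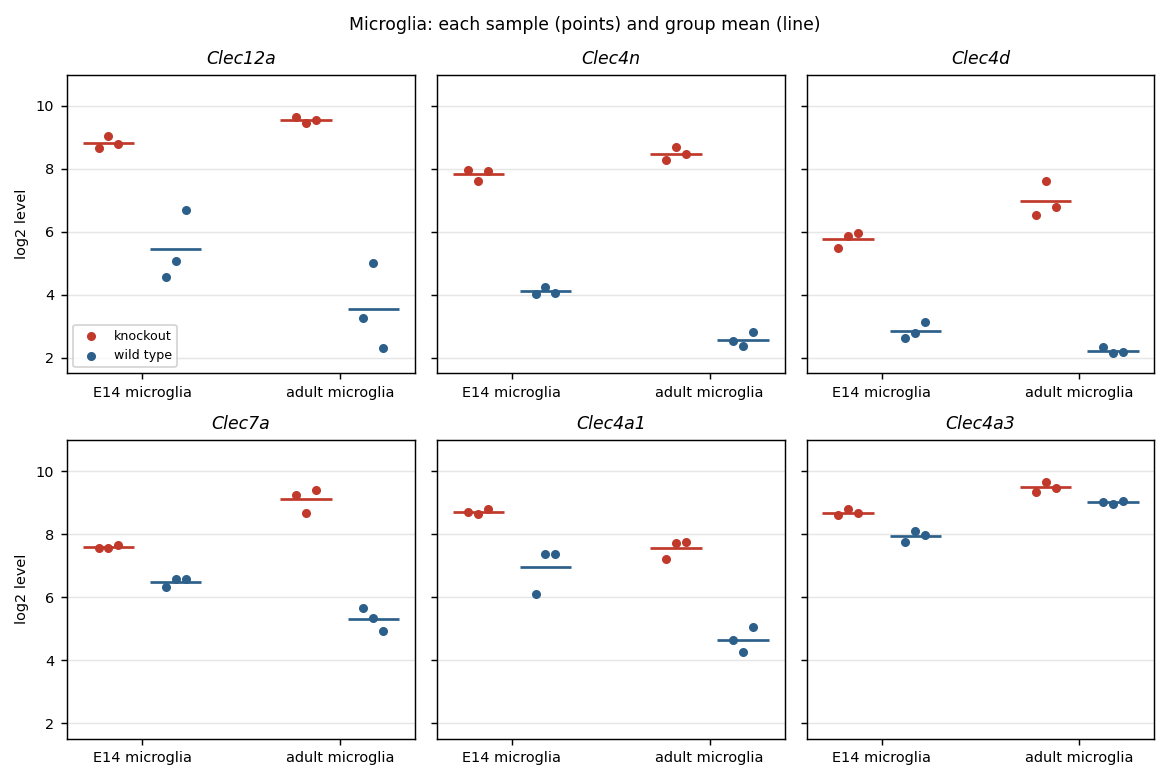
Log2 level (y axis) of 6 genes in each sample (points) and as a group mean (line) in E14 and adult microglia, knockout left of wild type. The knockout samples lie above all wild-type samples of their age in each panel, and Clec4a3 shows the smallest gap and was not called. Of all genes, 36.8% at E14 and 28.2% in the adult had groups without overlap, in either direction.

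Markers of other cells moved in the microglia samples. In adult knockout microglia 6 of 10 genes of border-type macrophages (the macrophages of meninges and vessels) were higher, a list chosen after levels in microglia had been seen, with sample means of 7.0 to 7.06, against 3.84 to 4.25 in wild type. The 6 were Mrc1 (5.49 ± 0.38), Ms4a7 (7.18 ± 0.36), Pf4 (7.43 ± 0.58), Siglec1 (4.97 ± 0.36), Cd163 (2.11 ± 0.44) and Cbr2 (1.29 ± 0.46), and Stab1 (0.71 ± 0.30), F13a1 (0.85 ± 0.46), Lyve1 (-0.09 ± 0.54) and Folr2 (-0.41 ± 0.44) were not called. Neutrophil markers were higher for 4 of 22, Camp, Cxcr2, Chil3 and Padi4 (sample means of the list 4.69 to 5.93, against 3.29 to 6.10 in wild type). At E14 neutrophil markers were higher for 15 of 22 and lower for 1 (7.32 to 7.74 in the knockout, against 3.46 to 6.10 in wild type), monocyte markers for 10 of 13 and border-type genes for 5 of 10. Microglia markers were lower for 4 of 9 in adult and 5 of 9 in E14 knockout cells, with Sall1 at 2.62 to 2.96 in the adult knockout, against 9.49 to 9.90 in wild type. The part of any of these in the rise of the receptors was not tested.

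In knockout E14 Kupffer cells 5 genes fell and 3 rose, against 23.0% of all genes (13.2% higher and 9.83% lower). The genes that fell were the DCIR family members Clec4a1 (-1.47 ± 0.33), Clec4a2 (-1.40 ± 0.38) and Clec4a3 (-1.31 ± 0.33), with Clec4n (-1.12 ± 0.25) and Clec7a (-0.71 ± 0.21). Clec5a had 5.96, 6.86 and 7.51 in knockout samples, against 3.63, 3.72 and 3.10 in wild type (3.30 ± 0.39, adjusted p = 1.12e-09). Clec4e had 6.08, 4.63 and 5.62 in the knockout, against 2.20, 3.04 and 3.73 in wild type (2.45 ± 0.44, adjusted p = 1.32e-05), and Clec4d rose as well (1.44 ± 0.36, adjusted p = 0.00171). The groups of these genes did not overlap, as was the case for 40.7% of all genes. All 11 macrophage markers and all 8 Kupffer markers were lower in these knockout samples, with macrophage means of 7.80 to 8.19, against 9.69 to 9.90 in wild type, and their part was not tested. Leaving out wild-type replicate 1 ended the call of Clec7a (adjusted p = 0.0516).

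In adult Kupffer cells 3 genes fell and 0 rose, against 11.9% of all genes (4.5% higher and 7.4% lower). Clec12a had 8.54, 7.42 and 8.20 in the knockout, against 9.86, 9.55 and 9.73 in wild type (-1.66 ± 0.40, adjusted p = 0.00276). Clec7a had 7.72, 6.93 and 7.58 in the knockout, against 9.05, 8.56 and 8.48 in wild type (-1.29 ± 0.21, adjusted p = 7.23e-06), and Clec4a1 fell by 1.11 on the log2 scale (SE 0.33, adjusted p = 0.0188). Without knockout replicate 2 Clec7a alone remained called, Clec12a at -1.34 ± 0.44 (adjusted p = 0.0516) and Clec4a1 at -0.99 ± 0.38 (adjusted p = 0.102), and Clec4a1 was also lost without knockout replicate 3 (adjusted p = 0.0639) or wild-type replicate 1 (adjusted p = 0.0635). Genotype and sex cannot be told apart in this population, since Xist was 9.52 to 9.99 in the knockout, against 2.71 to 3.88 in wild type. Of 10 endothelial markers 8 were higher in the knockout (7.62 to 8.05, against 5.75 to 7.07 in wild type), and their part was not tested. Clec5a and Clec4e were at background in both genotypes here, and their knockout change differed from that at E14 by -3.24 ± 0.56 (adjusted p = 1.9e-05) and -3.14 ± 0.62 (adjusted p = 0.000162). These differences rest on the E14 change and give no size for an adult effect.

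In kidney F4/80high macrophages of the adult 4 of 10 genes rose and 0 fell, against 3.57% of all genes (1.37% higher and 2.2% lower). Clec4n had 9.68, 9.82 and 9.50 in the knockout, against 7.20, 8.07 and 7.75 in wild type (1.99 ± 0.25, adjusted p = 2.56e-08). Clec4d had 5.62, 5.74 and 5.46 in the knockout, against 2.90, 3.95 and 4.04 in wild type (1.98 ± 0.36, adjusted p = 0.000105). Clec2i had 7.68, 7.76 and 7.23 in the knockout, against 5.69, 6.08 and 5.86 in wild type (1.68 ± 0.42, adjusted p = 0.00841, and 0.0526 without knockout replicate 2). Clec5a was higher by 1.32 ± 0.39 (adjusted p = 0.0414), a call that was lost without any one of the 6 samples (adjusted p = 0.0804 to 0.144). Clec7a did not pass the test here, with 8.83, 9.12 and 9.03 in the knockout, against 9.22, 8.98 and 8.87 in wild type (-0.03 ± 0.21, adjusted p = 0.987). Monocyte markers were higher for 3 of 13 and lower for 1 (6.01 to 6.10, against 5.60 to 5.84 in wild type), Kupffer markers higher for 3 of 8 and lower for 1 (4.26 to 4.94, against 3.23 to 4.34 in wild type) and border-type genes higher for 3 of 10 (8.18 to 8.60, against 6.27 to 8.05 in wild type), and their part was not tested.

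At E14 the kidney F4/80high macrophages had 1 gene higher and 2 lower, against 1.97% of all genes (0.591% higher and 1.38% lower), with 2 wild-type samples. Clec2i had 2.74, 1.75 and 2.83 in the knockout, against 5.14 and 4.19 in wild type (-2.22 ± 0.47, adjusted p = 0.00228), the opposite of the adult, and the difference of the 2 effects was 3.91 ± 0.63 (adjusted p = 6.55e-05). Clec4n (0.98 ± 0.28, adjusted p = 0.0464) and Clec7a (-0.84 ± 0.23, adjusted p = 0.0393) were close to the threshold. Clec4n was not called without any one of the 5 samples (adjusted p = 0.0731 to 0.312), nor was Clec7a, except without knockout replicate 1 (adjusted p = 0.0835 to 0.326). Leaving out wild-type replicate 1 ended the call of Clec2i (-1.75 ± 0.59, adjusted p = 0.204).

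In knockout Langerhans cells 3 receptors fell and 2 rose, against 27% of all genes (16.6% higher and 10.4% lower). Clec4e had 3.93, 4.26 and 4.0 in knockout samples, against 5.46, 6.34 and 6.34 in wild type (-1.98 ± 0.44, adjusted p = 0.00025), and Clec4d had 5.89, 6.24 and 6.26, against 7.71, 7.84 and 7.51 in wild type (-1.56 ± 0.36, adjusted p = 0.000464). Clec4a3 had 6.57, 6.84 and 5.79 in the knockout, against 3.33, 3.94 and 3.62 in wild type, a 6.83-fold rise (2.77 ± 0.33, adjusted p = 4.31e-10). Clec4a2 rose as well (1.52 ± 0.38, adjusted p = 0.0013), with means of 3.86 in the knockout and 2.34 in wild type. Every wild-type sample was at or below 3.04, so its rise was at least 1.76-fold counted from 3.04. Clec7a fell by 0.64 on the log2 scale (SE 0.21, adjusted p = 0.0161) and was not called without knockout replicate 1 or 3 or wild-type replicate 3 (adjusted p = 0.0581 to 0.143). The wild-type array titles name GFP+ cells and the knockout titles do not, so the sort and the genotype cannot be told apart. Sex and genotype cannot be told apart here either. The sex-linked gene Eif2s3y had 4.87, 4.93 and 7.57 in the knockout, against 1.62, 2.68 and 1.31 in wild type. Xist had 9.68, 9.54 and 7.70 in the knockout, against 9.77, 9.91 and 10.30 in wild type. Keratinocyte markers were higher for 6 of 7 in the knockout (8.18 to 8.59, against 6.61 to 6.84 in wild type). Higher as well were 5 of 9 microglia markers, 4 of 10 border-type macrophage genes and 3 of 13 monocyte markers. Macrophage markers were higher for 3 of 11 and lower for 1, and dendritic cell markers were lower for 4 of 10. The part of these marker changes was not tested.

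In the CD11bhigh fractions Clec5a was higher and Clec7a lower in the knockout in both organs at both ages. In adult liver 3 genes rose and 3 fell, against 16.8% of all genes (9.21% higher and 7.57% lower). Clec5a had 8.56, 8.12 and 7.97 in knockout samples, against 5.41, 5.39 and 5.57 in wild type (2.76 ± 0.39, adjusted p = 7.67e-08). Clec7a had 7.47, 7.34 and 7.02 in the knockout, against 9.08, 9.11 and 9.24 in wild type (-1.87 ± 0.21, adjusted p = 7.52e-11). Clec4a1 (-1.63 ± 0.33) and Clec4a3 (-1.30 ± 0.33) fell, while Clec4a2 (1.26 ± 0.38, adjusted p = 0.0132) and Clec4n (0.95 ± 0.25) rose. Clec4a2 was lost without knockout replicate 1 or wild-type replicate 1 or 2 (adjusted p = 0.0514 to 0.0939).

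In E14 liver CD11bhigh cells 4 genes fell and 3 rose, against 14% of all genes (5.74% higher and 8.31% lower). Clec4a3 had 4.89, 2.76 and 5.30 in the knockout, against 8.11, 7.85 and 7.73 in wild type (-3.58 ± 0.33, adjusted p = 3.22e-13), and Clec4a1 had 5.27, 3.66 and 5.71, against 7.79, 7.57 and 7.50 in wild type (-2.74 ± 0.33, adjusted p = 3.28e-09). Clec2i (-1.58 ± 0.42) and Clec7a (-1.38 ± 0.21) were the other falls. Clec4d (1.74 ± 0.36), Clec4e (1.52 ± 0.44) and Clec5a (1.13 ± 0.39, adjusted p = 0.0417) rose. The Clec5a samples lay at 9.26, 9.40 and 9.39 in the knockout, against 8.15, 8.27 and 8.23 in wild type, yet its call was lost without any one sample (adjusted p = 0.0779 to 0.12), and that of Clec4e without wild-type replicate 1 (adjusted p = 0.0604).

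In the kidney CD11bhigh fraction of the adult 2 genes rose and 2 fell, against 13.7% of all genes (6.95% higher and 6.71% lower). Clec4n had 7.58, 6.71 and 6.43 in the knockout, against 5.04, 5.62 and 5.0 in wild type (1.68 ± 0.25, adjusted p = 1.24e-06). Clec5a had 6.42, 6.45 and 5.67, against 4.08, 2.91 and 6.14 in wild type (1.80 ± 0.39, adjusted p = 0.000664), with overlap, and 1.07 ± 0.39 (adjusted p = 0.0661) without wild-type replicate 2. A limma fit on these groups alone called 0 of the 10 genes, with Clec5a at 1.80 ± 0.69 (adjusted p = 0.334). Clec4e (-1.40 ± 0.44, adjusted p = 0.022) and Clec7a (-0.95 ± 0.21) fell, Clec4e being lost without knockout replicate 2 or 3 or wild-type replicate 2 or 3. At E14 Clec5a had 8.20, 8.36 and 7.22 in the knockout, against 6.27, 6.10 and 5.34 in wild type (2.02 ± 0.39, adjusted p = 0.000102), while Clec4a1 (-1.41 ± 0.33), Clec4a3 (-1.24 ± 0.33) and Clec7a (-0.77 ± 0.21) fell, which made 1 higher and 3 lower, against 14% of all genes (5.92% higher and 8.07% lower). Clec4a3 and Clec7a were lost without knockout replicate 1 (adjusted p = 0.0635 and 0.0825).

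Neutrophil markers were higher in the knockout in each CD11bhigh fraction, for 16 of 22 in adult liver (9.27 to 9.60, against 5.41 to 6.69 in wild type) and 13 of 22 in adult kidney, with 1 lower (7.02 to 7.71, against 3.66 to 4.96 in wild type). At E14 they were higher for 6 of 22 in liver (9.50 to 9.57, against 8.45 to 8.74 in wild type) and 15 of 22 in kidney (7.66 to 9.13, against 4.75 to 6.80 in wild type). Monocyte markers were lower for 7 of 13 in adult and in E14 liver, 5 of 13 in adult kidney and 6 of 13 in E14 kidney, with 1 higher at E14 in each organ. Macrophage markers were lower for 9 of 11 in E14 kidney (6.28 to 8.07, against 9.06 to 9.19 in wild type), 5 of 11 in E14 liver (5.05 to 5.36, against 6.25 to 6.51 in wild type) and in adult liver (6.69 to 7.02, against 7.60 to 7.85 in wild type), and 2 of 11 in adult kidney, with 1 higher. The adult liver samples also had 6 of 6 B cell markers higher in the knockout. Their part in the receptor changes was not tested.

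**Figure D5:**
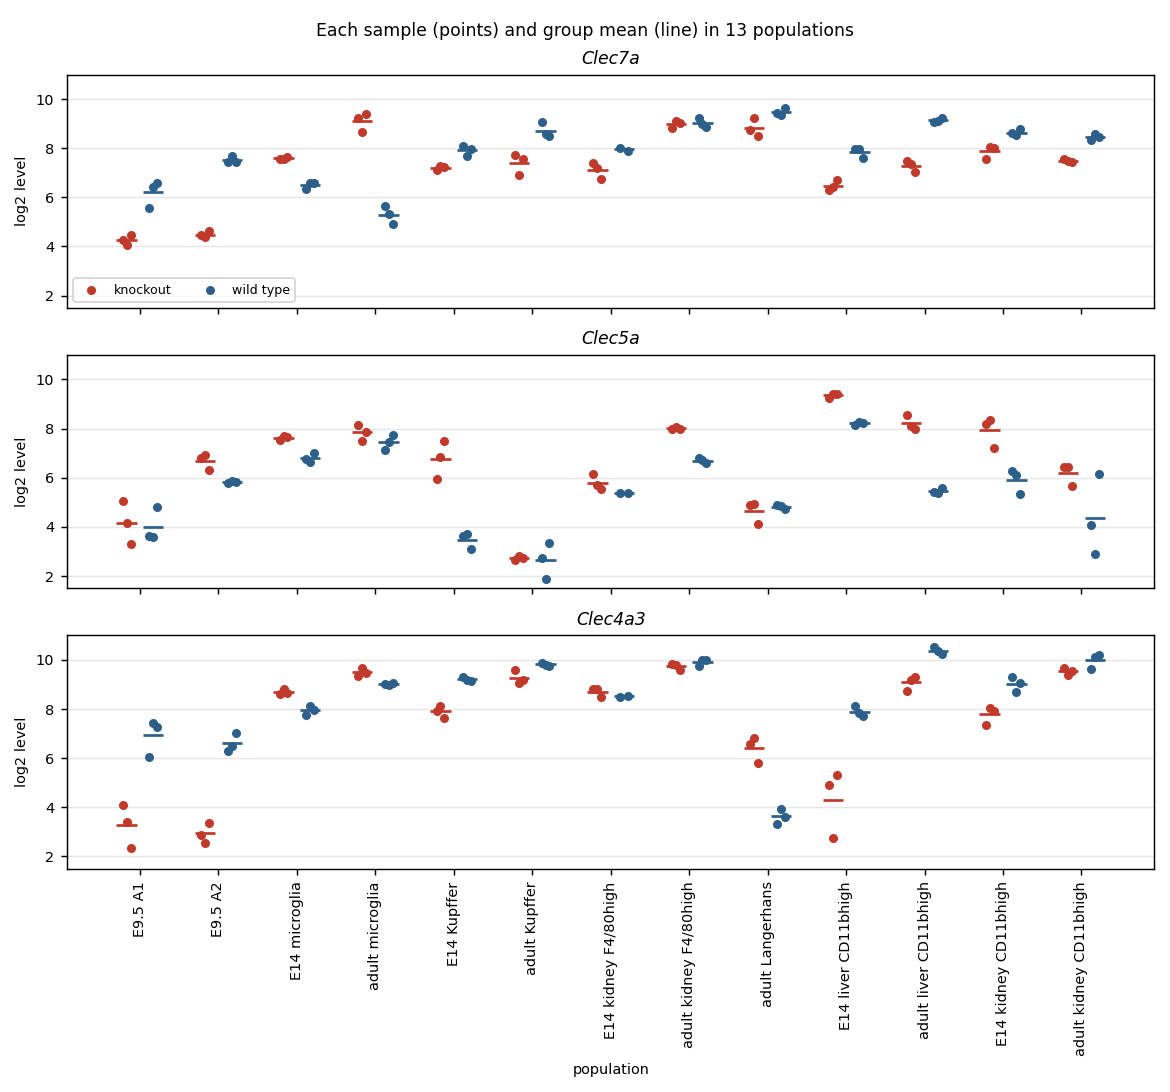
Log2 level (y axis) of Clec7a, Clec5a and Clec4a3 in each sample (points) and as a group mean (line) in 13 populations (x axis), knockout left of wild type. Clec7a lies lower in the knockout outside microglia and adult kidney F4/80high cells, Clec5a lies higher in the knockout in all 4 CD11bhigh fractions and E14 Kupffer cells, and Clec4a3 is low in knockout A1, A2 and E14 liver CD11bhigh cells.

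The signalling partners of these receptors were read in the same 13 comparisons. Fcer1g, the chain of Clec4e, Clec4d and Clec4n, was called in 2 of 13 populations, lower in adult liver CD11bhigh cells (-0.34 ± 0.11, adjusted p = 0.0287) and higher in those of E14 (0.52 ± 0.11, adjusted p = 0.000682). Tyrobp was higher in adult microglia (0.30 ± 0.11) and E14 liver CD11bhigh cells (0.36 ± 0.11), and Hcst rose in adult microglia (1.13 ± 0.27), E14 microglia (1.11 ± 0.27) and E14 liver CD11bhigh cells (0.92 ± 0.27). Syk was lower in adult liver CD11bhigh cells (-0.66 ± 0.19), E14 microglia (-0.63 ± 0.19) and E14 Kupffer cells (-0.62 ± 0.19). Of 29 adaptor and signalling genes tested, 11 fell and 0 rose in adult Kupffer cells, against 7.4% of all genes lower, and 9 fell and 0 rose in adult liver CD11bhigh cells, against 7.57% of all genes lower. Among them were the kinase genes Btk in Kupffer cells (-1.19 ± 0.20) and Prkcd in both (-0.84 ± 0.16 in Kupffer cells, -0.88 ± 0.16 in CD11bhigh cells). In Langerhans cells 6 rose and 7 fell, against 27% of all genes called. Card9 was higher there (1.66 ± 0.22) and in E14 Kupffer cells (0.63 ± 0.22) and lower in adult Kupffer cells (-0.93 ± 0.22, adjusted p = 0.00233). The phosphatase gene Ptpn6 was higher in Langerhans cells (1.70 ± 0.12) and E14 kidney CD11bhigh cells (0.43 ± 0.12) and lower in E14 Kupffer cells (-0.36 ± 0.12, adjusted p = 0.024). As given above, genotype cannot be told apart from sex in adult Kupffer cells, nor from sex or the sort in Langerhans cells. Endothelial markers in adult Kupffer cells and keratinocyte markers in Langerhans cells were mostly higher in the knockout. Their part in the partner genes was not tested.

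Of 18 cytokine and response genes that lie downstream of such receptors, 10 rose and 0 fell in E14 Kupffer cells, against 13.2% of all genes higher, with a median change of 1.45, against 0.03 over all genes. Ptgs2, the inducible prostaglandin synthase gene, was higher by 4.64 ± 0.31, Tnf by 3.71 ± 0.29 and Ccl3 by 3.41 ± 0.25. In E14 liver CD11bhigh cells 9 rose and 0 fell, against 5.74% of all genes higher, Il1b by 3.83 ± 0.30 and Cxcl2 by 3.64 ± 0.34. In adult microglia 6 rose and 1 fell, against 14.6% of all genes called, with Cxcl2 at a mean of 9.84 in the knockout, against 3.25 in wild type (6.60 ± 0.34), and Il6 at 1.68, against 5.41 (-3.73 ± 0.60). In E14 kidney CD11bhigh cells 0 rose and 12 fell, against 8.07% of all genes lower, with changes of -2.89 ± 0.53 for Il10 and -2.45 ± 0.46 for Ccl2, and in A1 0 rose and 5 fell, against 2.77% of all genes lower, with a change of -4.08 ± 0.46 for Ccl2.

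Other C-type lectin genes, 31 listed and 28 tested, served as the surrounding family. Their counts are set beside the share of all genes called in each comparison. In adult microglia 4 of 28 rose and 2 fell, against 14.6%, with the mannose receptor gene Mrc1 higher by 5.49 ± 0.38 and the scavenger lectin gene Colec12 by 3.62 ± 0.35. In E14 Kupffer cells 4 rose and 9 fell, against 23.0%, with Clec4f (-3.32 ± 0.29), a Kupffer cell lectin, and Cd207 (-2.30 ± 0.25), the langerin gene, lower and the activation marker gene Cd69 higher (5.53 ± 0.30). In adult liver CD11bhigh cells 3 rose and 4 fell, against 16.8%, and Clec4b2, a neighbour of the DCIR genes, averaged 8.55 in the knockout, against 1.94 in wild type (6.61 ± 0.42, adjusted p = 8.57e-20). In A2 0 rose and 4 fell, against 10.1%, including Colec12 (-3.45 ± 0.35) and Mrc1 (-2.45 ± 0.38). Clec4a1, Clec4a2, Clec4a3, Clec4b2 and Clec4n are close relatives in sequence, and cross-hybridisation between their probes was not tested.

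Across the 27 group means, which share arrays and RNA amplification, the genes most alike among the 10 were Clec7a and Clec4a1 (Pearson r 0.884), Clec4a1 and Clec4a3 (0.825), Clec12a and Clec4a2 (0.808), Clec4n and Clec4a1 (0.739), Clec7a and Clec4n (0.738), and Clec4e and Clec4d (0.715). The least alike were Clec4n and Clec5a (-0.028). Over all tested genes, Clec4a3 was most like Xaf1 (0.966), Parp12 (0.953) and Parp14 (0.951), which are known as interferon-stimulated genes, and Clec12a was most like Cybb (0.941), the NADPH oxidase subunit gene. Clec4e came closest to Acod1 (0.873), the itaconate synthase gene, Clec4a1 to Ifi207 (0.923), Clec4n to Mdfic (0.859), Clec4a2 to Inpp4a (0.909), Clec2i to Kmo (0.891), Clec5a to Ramp1 (0.864) and Clec4d to Dusp5 (0.78). These are descriptions over 27 points, with no test.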

How the data were processed

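RNA of the sorted cells was amplified and hybridised to Affymetrix arrays, per the labels' protocols. The deposited values are log2 signals, and the submitters' processing notes name RMA and Affymetrix Expression Console. Of 41345 probes, 23521 had 1 gene symbol, which gave 22180 genes, each read by its brightest probe. Genes above the table's median, 3.04, in at least 2 arrays were kept (17076). In limma 3.58.1 (R 4.3.3) a mean per group was fitted over 80 samples, with eBayes trend and 53 residual degrees of freedom, p-values being two-sided and Benjamini-Hochberg adjusted over all genes. Array medians ran between 2.942 and 3.195. Fold sizes are powers of base 2 of log2 changes. Alternatives changed the floor, the scaling, array weights, the groups fitted, the repeated array and the samples, and added a replicate block. Named genes are the 10 receptors, Irf8, at most 3 genes per list and comparison with the smallest adjusted p among those called, cell type markers beside the result they moved with, and up to 3 genes most like each receptor by Pearson r. Fcer1g, Tyrobp, Hcst, Syk, Card9 and Ptpn6 were also read in every population, as known partners. The receptors, the lists and the tests were chosen with earlier results of these data known. The fit was tested on simulated data.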

Additional observations from a re-analysis of the deposited data

Results flagged for a closer look

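The knockout effect of a gene was compared between ages and between sort gates by an interaction contrast in the limma fit, and 26 such differences passed the adjusted threshold. All values are differences of 2 log2 changes, the later age minus E14 or the CD11bhigh gate minus the other gate. Of all genes, 10.5% passed for microglia, 16.4% for Kupffer cells, 1.04% for kidney F4/80high, 14.5% for liver CD11bhigh and 13.3% for kidney CD11bhigh cells.

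With age, the knockout effect in microglia was larger for Clec7a (2.72, adjusted p = 2.26e-10), Clec12a (2.62, adjusted p = 0.000819), Clec4n (2.18, adjusted p = 8.79e-06) and Clec4d (1.85, adjusted p = 0.01). In Kupffer cells it differed for Clec12a (-1.57, adjusted p = 0.0475), Clec4n (1.22, adjusted p = 0.0118), Clec4e (-3.14, adjusted p = 0.000162) and Clec5a (-3.24, adjusted p = 1.9e-05). Clec4e and Clec5a were at background in adult Kupffer cells of both genotypes, so their differences rest on the E14 change. Xist was 9.52 to 9.99 in adult knockout Kupffer cells, against 2.71 to 3.88 in adult wild type. Sex and the knockout effect of the adult therefore cannot be told apart in these Kupffer cell differences. In kidney F4/80high macrophages 1 gene differed, Clec2i (3.91, adjusted p = 6.55e-05). Clec2i there had opposite signs at the ages, higher in the adult knockout and lower in the E14 knockout. In liver CD11bhigh cells the genes were Clec4n (1.21, adjusted p = 0.0129), Clec4e (-2.60, adjusted p = 0.00157), Clec4d (-1.93, adjusted p = 0.00457), Clec5a (1.63, adjusted p = 0.0362) and Clec4a3 (2.29, adjusted p = 0.000202). In kidney CD11bhigh cells they were Clec4n (1.95, adjusted p = 6.93e-05) and Clec4d (-1.46, adjusted p = 0.0445).

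Between gates, the adult liver differed for Clec12a (2.26, adjusted p = 0.00322), Clec5a (2.70, adjusted p = 0.000234) and Clec4a2 (1.77, adjusted p = 0.018), against 13.3% of all genes. The adult kidney differed for Clec7a (-0.93, adjusted p = 0.0405), Clec4e (-2.11, adjusted p = 0.0227) and Clec4d (-2.53, adjusted p = 0.000331), against 7.34%. The E14 liver differed for Clec5a (-2.17, adjusted p = 0.00292), Clec4a2 (2.27, adjusted p = 0.00132) and Clec4a3 (-2.27, adjusted p = 0.000205), against 17.9%. The E14 kidney differed for Clec2i (2.27, adjusted p = 0.0366), against 2.12%. With same-numbered samples of both gates as a block, Clec2i in E14 kidney (2.23, adjusted p = 0.0712) and Clec7a in adult kidney (-0.93, adjusted p = 0.0529) were not called. In the adult liver the knockout samples also differed in Xist, at 2.56 to 3.00 in CD11bhigh cells, against 9.52 to 9.99 in Kupffer cells, so sex and the gate difference cannot be told apart there. Neutrophil, monocyte and macrophage markers moved with genotype in several of these populations, and their part in the differences was not tested. Leaving out 1 sample ended 9 of the 26 calls. They were Clec4d in microglia, Clec12a in Kupffer cells, Clec4n and Clec5a in liver CD11bhigh and Clec4d in kidney CD11bhigh cells between ages, and Clec4a2 in adult liver, Clec7a and Clec4e in adult kidney and Clec2i in E14 kidney between gates, with adjusted p between 0.0506 and 0.285.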

How the results depend on the processing

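No call of a receptor gene in the 13 knockout comparisons turned its direction under any alternative run, and 44 of the 65 calls were kept under every one, while 21 were lost under at least 1. The number of the 10 genes called moved by over 1.5 times in these cases, whose cause was not tested. In adult Kupffer cells it was 1 with array weights, against 3. With a fit on the compared groups alone it was 0 in adult kidney CD11bhigh cells, against 4 (limma, with 7 genes at an unadjusted p below 0.05), 8 in E14 microglia, against 5, and 1 in E14 kidney F4/80high macrophages, against 3. Leaving out 1 sample gave 1 to 3 in adult Kupffer cells, 2 to 4 in adult kidney CD11bhigh cells, 2 to 3 in adult kidney F4/80high macrophages, against 4 with all samples, and 2 to 5 in E14 kidney CD11bhigh cells. In E14 kidney F4/80high macrophages it gave 0 to 2, the 0 without wild-type replicate 1 (limma, with 3 genes at an unadjusted p below 0.05), which leaves 1 wild-type sample assumed to vary like the other groups.

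With the replicate number as a replicate block, the count in E14 kidney F4/80high macrophages was 1, against 3. Of the 130 changes, 5 were weaker in that fit. Same-numbered samples did not deviate together in every pair, with r between -0.176 and 0.151 over 38 pairs, so the numbers were not taken to pair knockout with wild-type samples. Between sort gates of one organ, same-numbered samples had r between -0.0254 and 0.386 over 23 pairs, and in 0 of 8 sets was every pair over 0.1. A block on that number, chosen after seeing the data, kept 18 of 21 wild-type gate calls and 8 of 10 differences of knockout effects between gates, and added 1 call. Each gene had 1 probe, so a next-brightest probe was not run. The 2 or 3 arrays per group limit the precision of every value.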
